A study of Mus musculus with 33 samples.

Results

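The genes of the mitochondrial ribosome and of mitochondrial protein import were taken as every gene whose symbol in the platform annotation begins with Mrpl, Mrps, Timm or Tomm followed by a digit, or is Pmpca or Pmpcb. The array named 92 such genes, and 71 of them had a measured value, out of 9672 genes with a value in all. These 71 were 31 of 43 Mrpl genes (large ribosomal subunit), 21 of 27 Mrps genes (small subunit), 6 of 7 Tomm genes (outer membrane translocase) and 13 of 14 Timm genes (inner membrane and intermembrane space). Pmpcb had no value and Pmpca was not among the array's symbols. Of the 71 members, 45 were measured on all 33 arrays, and the least covered was measured on 24.

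Spleen cells of female BALB/c mice aged 2 months were cultured under 3 conditions. The first was CpG ODN, an oligodeoxynucleotide mixture of ODN 1555 and ODN 1466 in equal parts, at 1 uM. The second was control ODN, an equal mixture of ODN 1612 and ODN 1471 that served as a non-CpG oligonucleotide at the same concentration, and the third was medium with no oligonucleotide. RNA was taken after 2, 4 and 8 h, with 4 arrays per condition at 2 h and at 4 h and 3 at 8 h. On each array Cy5-labelled cDNA of the spleen cells was hybridized with Cy3-labelled cDNA of a Universal Mouse Reference RNA, which pools several mouse cell types and tissues. The comparison with control ODN addresses the response to the CpG motif, and the comparison with medium addresses the whole effect of the oligonucleotide. The labels do not say whether animals were pooled, and a spleen cell culture holds many cell types, so a change in the proportion of a cell type and a change of RNA per cell cannot be told apart.

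Mitochondria carry their own ribosome, which makes a small set of membrane proteins of the respiratory chain. All its proteins are encoded in the nucleus, made in the cytosol and imported. Import passes through the TOM complex of the outer membrane. Proteins with a cleavable presequence then pass through the TIM23 complex, and many carrier proteins of the inner membrane are escorted across the intermembrane space by small TIM chaperones to the TIM22 complex. Activated lymphocytes are known to enlarge their mitochondrial content as they prepare to divide.

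Values are log ratios of spleen cell RNA over reference RNA for each gene, centred on the median of each array. They are read as log2 from their range of -6.51 to 8.54, since the log base is not stated, so every fold change below rests on that reading. Each gene is compared only with itself across conditions, because levels of different probes are not comparable. Arrays held 7908 to 11129 measured probes and 53 to 71 of the members. The lowest of these counts were both on control ODN replicate 4 at 2 h. As a check of the labelled material, the averaged B cell markers lay at 0.996 to 1.15 on the CpG ODN arrays, 1.52 to 1.76 on the control ODN arrays and 1.33 to 1.76 on the medium arrays at 8 h. Markers of non-lymphoid tissues in the reference pool averaged -0.931 to -0.586 on the same CpG ODN arrays, -0.792 to -0.300 on the control ODN arrays and -0.688 to -0.541 on the medium arrays.

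After 8 h, some members of the import machinery and of the small subunit were higher with CpG ODN than with both controls, whereas no member was called lower in either comparison. Against control ODN, 9 of 70 tested members were higher and 0 were lower (limma, adjusted p below 0.05). Over all 9494 genes tested, 4.55% were called higher, 5.45% lower and 10% in either direction. Against medium, 12 of 70 were higher and 0 lower, where 5.66% of 9478 genes were called higher, 6.11% lower and 11.8% in either direction. When the fit held no group besides those compared, the calls against medium went down to 3, namely Mrps2, Timm23 and Timm9. Every other member called against medium lost that call in this fit, which is not repeated for each gene below. The calls fell unevenly over the classes. Against control ODN they were 5 of 13 Timm, 3 of 21 Mrps, 1 of 5 Tomm and 0 of 31 Mrpl genes, and against medium 5 Timm, 4 Mrps, 2 Tomm and 1 Mrpl gene. Whether the classes differ from one another was not tested. The median difference from control ODN was 0.71 for Timm, 0.30 for Tomm, 0.15 for Mrpl and 0.11 for Mrps genes. It was 0.18 for all members, beside -0.12 for all genes tested, and 49 members had a positive difference and 21 a negative one.

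**Figure D1:**
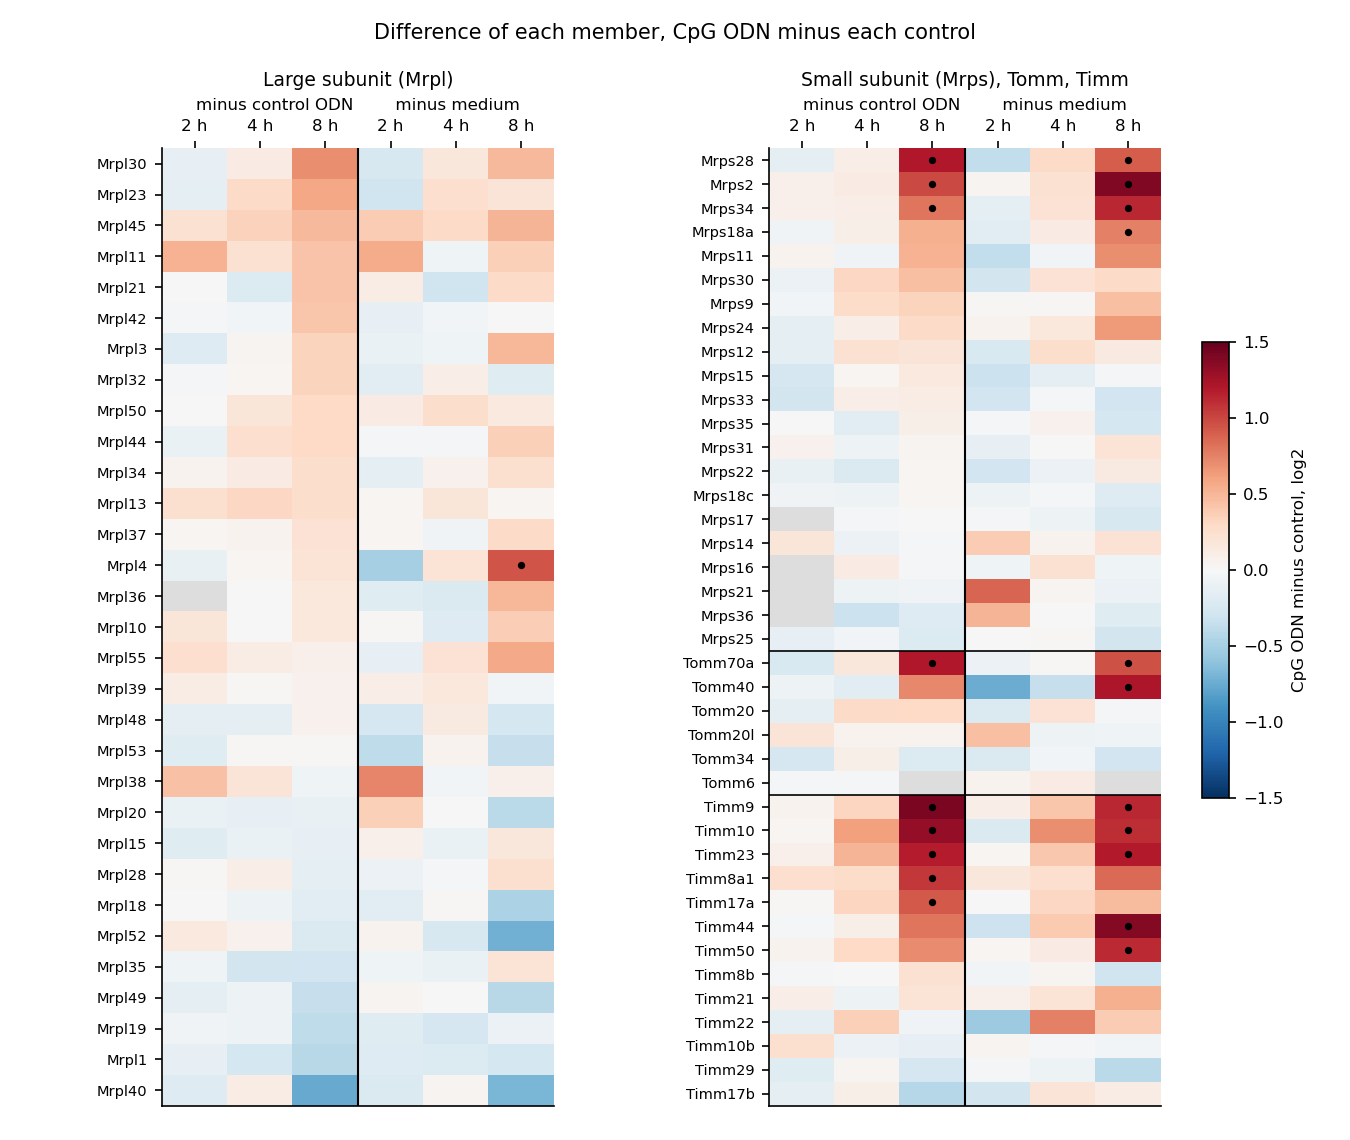
Each cell shows one member's difference on the log2 scale between CpG ODN and control ODN (columns 1 to 3 of each panel) or medium (columns 4 to 6) at 2, 4 and 8 h, with members of a class ordered by the difference from control ODN at 8 h. Black dots mark adjusted p below 0.05 and grey marks pairs that were not tested. Dots appear at 8 h alone, and all 21 of them are on positive differences.

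Both comparisons called Mrps2, Mrps28, Mrps34, Timm10, Timm23, Timm9 and Tomm70a. These 7 genes were 77.8% of those called against control ODN and 58.3% of those called against medium. The same CpG ODN arrays enter both comparisons, so the lists are not independent. Timm17a and Timm8a1 were called only against control ODN. Mrpl4, Mrps18a, Timm44, Timm50 and Tomm40 were called only against medium.

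**Figure D2:**
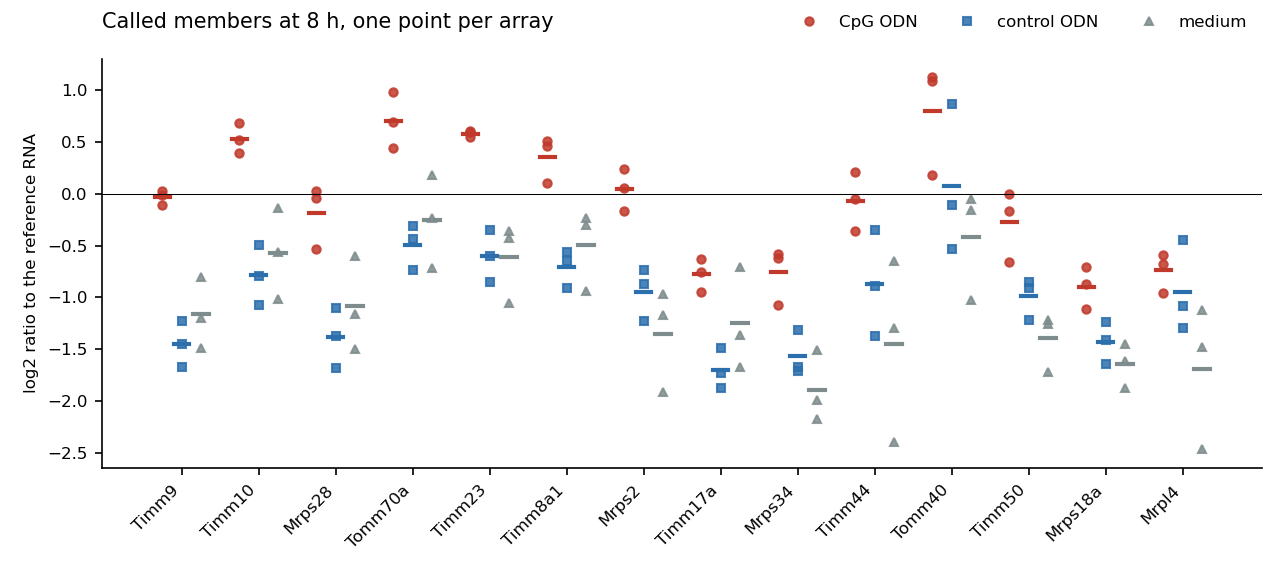
The log2 ratio to the reference RNA is shown for the 14 members called at 8 h, with a point for each of 3 arrays per condition and a short bar at the mean. CpG ODN lies above control ODN without overlap for Timm9, Timm10, Timm23, Timm17a, Timm8a1, Timm50, Tomm70a, Mrps28, Mrps2, Mrps34 and Mrps18a, and overlaps it for Timm44, Tomm40 and Mrpl4.

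Among the small TIM chaperones, Timm9 (GRCm38 chr12:71123172-71136708) had the smallest p of all members against control ODN. Timm9 was at -0.11, -0.01 and 0.03 on the CpG ODN arrays, at -1.45, -1.23 and -1.67 on the control ODN arrays, and at -1.49, -0.80 and -1.20 on the medium arrays. The CpG ODN arrays lay close together and above every array of both controls. The difference was 1.42 ± 0.25 (SE) from control ODN, a 2.67-fold ratio (limma adjusted p = 1.99e-04), and 1.13 ± 0.25 from medium (limma adjusted p = 0.00225). A further Timm9 probe, not used in the fit, moved the same way by less, at 0.57 above control ODN and 0.20 above medium. With both probes averaged the difference from control ODN was 0.995 and kept its call.

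Timm10, the partner with which Timm9 forms a ring-shaped chaperone, was at 0.39, 0.52 and 0.69 with CpG ODN, at -0.80, -0.49 and -1.07 with control ODN, and at -1.02, -0.14 and -0.56 in medium. Here too no control array reached the CpG ODN arrays. The difference was 1.32 ± 0.30 from control ODN (limma adjusted p = 0.00415) and 1.10 ± 0.30 from medium (limma adjusted p = 0.0152). The call for Timm10 against medium was lost without CpG ODN replicate 3 or medium replicate 1, with a highest limma adjusted p of 0.0692. Timm8a1, the mouse counterpart of the protein lost in human deafness-dystonia syndrome, was at 0.10, 0.51 and 0.46 with CpG ODN and at -0.91, -0.56 and -0.65 with control ODN. In medium it was at -0.94, -0.23 and -0.30, so the CpG ODN arrays were the highest here as well. Its difference was 1.06 ± 0.29 from control ODN (limma adjusted p = 0.0170) and 0.85 ± 0.29 from medium, which missed the threshold (limma adjusted p = 0.0570). The call for Timm8a1 was lost when CpG ODN replicate 2 or 3 or control ODN replicate 1 was left out, with a highest limma adjusted p of 0.0733. The other small TIM members measured did not pass the test: Timm8b differed by 0.23 and Timm10b by -0.12 from control ODN.

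These 3 called small TIM genes shared a sequence feature in their promoters. RefSeq promoters (GRCm38.p6, 250 bases before to 50 after the start) were matched to 62 of the 71 members and to 11 of the 14 members called at 8 h, and were searched on both strands for 4 motifs. The palindromic E-box CACGTG, a motif bound by Myc family factors, stood in the promoters of Timm9, Timm10 and Timm8a1, which were the 3 of 11 called members that held it. It was present in 9 of 68 promoters of members (13.2%) and in 7.15% of all 32851 promoters. Of the 57 promoters of members not called, 6 held it (10.5%). Whether called members hold it more often was not tested. The promoters of these 3 genes and of Timm23 are shown because these genes rose at 8 h and differ in the motifs they hold. Capitals mark each match to CACGTG or to the ETS motif CCGGAAG in either orientation, and the gene's own strand is printed. Timm9 is chr12:71136626-71136925 (minus strand), Timm10 is chr2:84826771-84827070 (plus strand), Timm8a1 is chrX:134541621-134541920 (minus strand) and Timm23 is chr14:32201842-32202141 (minus strand).
Timm9: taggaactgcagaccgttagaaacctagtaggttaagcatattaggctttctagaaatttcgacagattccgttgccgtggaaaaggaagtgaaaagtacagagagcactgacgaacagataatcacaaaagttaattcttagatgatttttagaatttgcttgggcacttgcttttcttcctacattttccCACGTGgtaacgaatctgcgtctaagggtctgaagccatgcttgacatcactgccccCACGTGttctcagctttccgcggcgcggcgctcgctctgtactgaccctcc
Timm10: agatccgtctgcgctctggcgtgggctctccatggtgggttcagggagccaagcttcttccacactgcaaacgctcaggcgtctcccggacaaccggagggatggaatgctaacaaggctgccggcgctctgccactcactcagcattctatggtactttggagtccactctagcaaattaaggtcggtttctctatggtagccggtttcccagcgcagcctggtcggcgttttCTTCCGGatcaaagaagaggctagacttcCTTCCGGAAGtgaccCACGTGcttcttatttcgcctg
Timm8a1: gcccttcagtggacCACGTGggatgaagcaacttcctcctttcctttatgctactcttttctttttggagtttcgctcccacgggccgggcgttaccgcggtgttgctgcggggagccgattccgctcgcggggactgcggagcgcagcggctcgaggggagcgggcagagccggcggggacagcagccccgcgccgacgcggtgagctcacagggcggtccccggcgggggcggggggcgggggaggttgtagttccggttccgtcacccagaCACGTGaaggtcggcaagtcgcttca
Timm23: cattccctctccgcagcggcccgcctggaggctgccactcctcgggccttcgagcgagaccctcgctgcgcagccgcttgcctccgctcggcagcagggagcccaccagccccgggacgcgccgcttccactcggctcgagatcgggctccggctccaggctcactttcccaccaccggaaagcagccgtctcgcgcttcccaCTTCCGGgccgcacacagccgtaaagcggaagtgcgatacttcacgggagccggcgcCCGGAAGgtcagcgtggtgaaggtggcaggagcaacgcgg
Timm9 and Timm8a1 each held the E-box at 2 places and Timm10 held it once, a few bases from a pair of overlapping ETS matches on opposite strands. Timm23 held the ETS motif and no E-box. The ETS motif, bound by GABP among others, was found in 22 of 68 member promoters (32.4%) and in 8.86% of all promoters. It occurred in 4 of the 11 called members' promoters and in 18 of the 57 promoters of members not called. The YY1 motif AANATGGC was found in 23.5% of member promoters and 6.05% of all promoters, among them those of Timm44, Timm50 and Mrps18a. The NRF1 motif was found in 13.2% of member promoters and 4.6% of all promoters. It occurred in 0 of the 11 called members' promoters and in 9 of the 57 promoters of members not called. A match describes these letters only.

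The subunits of the TIM23 translocase, the route of presequence proteins into the matrix, were called in part at 8 h. Of the 6 members described here (Timm17a, Timm17b, Timm21, Timm23, Timm44 and Timm50), 2 were higher with CpG ODN than with control ODN and 3 than in medium, and Timm23 alone passed both tests. Timm23 (GRCm38 chr14:32180166-32201891), its channel-forming subunit, was at 0.55, 0.60 and 0.59 with CpG ODN, at -0.85, -0.35 and -0.60 with control ODN, and at -1.05, -0.36 and -0.42 in medium. The 3 CpG ODN arrays agreed within 0.03 (SD) and stood above all 6 others. The difference was 1.18 ± 0.24 from control ODN (limma adjusted p = 0.00118) and 1.19 ± 0.24 from medium (limma adjusted p = 9.65e-04), and both calls held under all 15 alternatives run for Timm23. Timm17a, which pairs with Timm23 in the complex, was at -0.94, -0.76 and -0.63 with CpG ODN, at -1.73, -1.49 and -1.87 with control ODN, and at -1.67, -0.71 and -1.37 in medium. It was separated from control ODN, with a difference of 0.92 ± 0.21 (limma adjusted p = 0.00421), but overlapped medium, with a difference of 0.47 ± 0.21 (limma adjusted p = 0.159). Its paralogue Timm17b did not pass the test and had a negative difference from control ODN of -0.43 ± 0.27, the lowest of the Timm genes.

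Timm50, the receptor that passes precursors on to the Timm23 channel, was at -0.65, -0.17 and -0.0041 with CpG ODN, at -0.85, -1.22 and -0.91 with control ODN, and at -1.25, -1.72 and -1.22 in medium. The CpG ODN arrays were above all others, and the difference passed the test from medium (1.12 ± 0.24, limma adjusted p = 0.00166) and narrowly missed it from control ODN (0.71 ± 0.24, limma adjusted p = 0.0545). Timm44, which tethers the matrix chaperone Hspa9 to the channel, was at -0.36, -0.05 and 0.21 with CpG ODN, at -0.89, -1.37 and -0.35 with control ODN, and at -0.65, -2.40 and -1.29 in medium. Its difference from medium was 1.38 ± 0.33 (limma adjusted p = 0.00453). That from control ODN was 0.80 ± 0.33, with overlapping arrays, and missed the threshold (limma adjusted p = 0.128). Without medium replicate 2, the lowest array, the call for Timm44 against medium was lost. Timm21, Timm22 and Timm29, a TIM23 subunit and members of the TIM22 complex, differed from control ODN by 0.20, -0.06 and -0.25 and were not called.

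In the outer membrane, Tomm70a (GRCm38 chr16:57121714-57154530) encodes the receptor that takes carrier precursors from cytosolic chaperones. It was at 0.44, 0.70 and 0.98 with CpG ODN, at -0.74, -0.44 and -0.31 with control ODN, and at -0.71, 0.18 and -0.23 in medium. All CpG ODN arrays were higher than all control arrays, the nearest being medium replicate 2. The difference was 1.20 ± 0.29 from control ODN (limma adjusted p = 0.00638) and 0.96 ± 0.29 from medium (limma adjusted p = 0.0280). A further probe of Tomm70a gave 1.20 and 1.05. The call against medium was lost when CpG ODN replicate 2 or 3, or medium replicate 1 or 3, was left out, with a highest limma adjusted p of 0.120.

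Tomm40, the channel of the outer membrane, was at 0.18, 1.13 and 1.09 with CpG ODN, at -0.10, -0.53 and 0.87 with control ODN, and at -0.16, -1.03 and -0.05 in medium. The spread within each condition was wide, and the difference of 1.21 ± 0.33 from medium passed the test (limma adjusted p = 0.0149) while that of 0.72 ± 0.33 from control ODN did not (limma adjusted p = 0.195). The call for Tomm40 was lost without CpG ODN replicate 2 or 3 or medium replicate 2, with a highest limma adjusted p of 0.124. Tomm20, the presequence receptor, differed from control ODN by 0.30 and the cytosolic co-chaperone Tomm34 by -0.21, and neither was called. Tomm6 had too few CpG ODN arrays at 8 h for a test against either control.

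In the small ribosomal subunit, Mrps28 (GRCm38 chr3:8802146-8923857) was at -0.54, -0.04 and 0.03 with CpG ODN, at -1.37, -1.11 and -1.68 with control ODN, and at -1.49, -0.60 and -1.16 in medium. The CpG ODN arrays stood above those of both controls, with medium replicate 2 closest to them. The difference was 1.20 ± 0.24 from control ODN (limma adjusted p = 0.00106) and 0.90 ± 0.24 from medium (limma adjusted p = 0.0127). The call for Mrps28 against medium was lost without CpG ODN replicate 2 or 3 or medium replicate 1, with a highest limma adjusted p of 0.146. Mrps2, the counterpart of a conserved bacterial ribosomal protein, was at -0.16, 0.05 and 0.24 with CpG ODN, at -0.73, -1.23 and -0.87 with control ODN, and at -0.97, -1.91 and -1.17 in medium. It did not overlap either control. The difference from medium, 1.39 ± 0.25 (limma adjusted p = 1.99e-04), had the smallest p of all members in that comparison, and that from control ODN was 0.99 ± 0.25 (limma adjusted p = 0.00849). The call for Mrps2 against control ODN was lost without control ODN replicate 2, at a limma adjusted p of 0.0574.

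Mrps34, a subunit that bacterial ribosomes lack, was at -1.07, -0.58 and -0.62 with CpG ODN, at -1.67, -1.71 and -1.31 with control ODN, and at -1.51, -2.18 and -1.99 in medium. Again no control array reached the CpG ODN arrays. The difference was 0.81 ± 0.24 from control ODN (limma adjusted p = 0.0311) and 1.14 ± 0.24 from medium (limma adjusted p = 0.00183). The call for Mrps34 against control ODN was lost without CpG ODN replicate 2 or 3, without control ODN replicate 1 or 2, and when the fit held no other group, with a highest limma adjusted p of 0.130. Mrps18a, whose product is found in the large subunit of the mammalian ribosome despite its name, was at -1.11, -0.87 and -0.71 with CpG ODN, at -1.23, -1.65 and -1.41 with control ODN, and at -1.45, -1.88 and -1.62 in medium. It did not overlap either control, and its difference passed the test from medium (0.75 ± 0.19, limma adjusted p = 0.00796) and not from control ODN (0.54 ± 0.19, limma adjusted p = 0.0742). The call for Mrps18a was lost without medium replicate 2, and its highest limma adjusted p over the alternatives was 0.136. The lowest difference from control ODN in the class was that of Mrps25, at -0.21, and Mrps17, Mrps14, Mrps16 and Mrps18c lay within 0.03 of 0.

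The genes named Mrpl contributed a single call. Mrpl4, another counterpart of a bacterial ribosomal protein, was at -0.96, -0.68 and -0.59 with CpG ODN, at -1.08, -1.30 and -0.45 with control ODN, and at -1.12, -2.47 and -1.47 in medium. CpG ODN and control ODN overlapped, and only the difference from medium passed the test (0.95 ± 0.27, limma adjusted p = 0.0183). It was lost without CpG ODN replicate 2 or 3 and without medium replicate 2, where the difference was lowest among the alternatives, at 0.56. The largest positive difference from control ODN in the class was that of Mrpl30, at 0.69 ± 0.26 (limma adjusted p = 0.0939), and the largest negative one was that of Mrpl40, at -0.76 ± 0.34 (limma adjusted p = 0.171). Mrpl3 had a pair of probes that differed in size, at 0.34 and 0.73 above control ODN and at 0.50 and 1.10 above medium. The fit used the probe with the smaller differences, and the other was not tested on its own. Both were measured on all 33 arrays, so missing values did not decide between them. The pairs of probes for Mrps12 and for Mrps15 differed in sign against medium, at -0.06 and 0.13 for Mrps12 and at -0.02 and 0.38 for Mrps15.

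**Figure D3:**
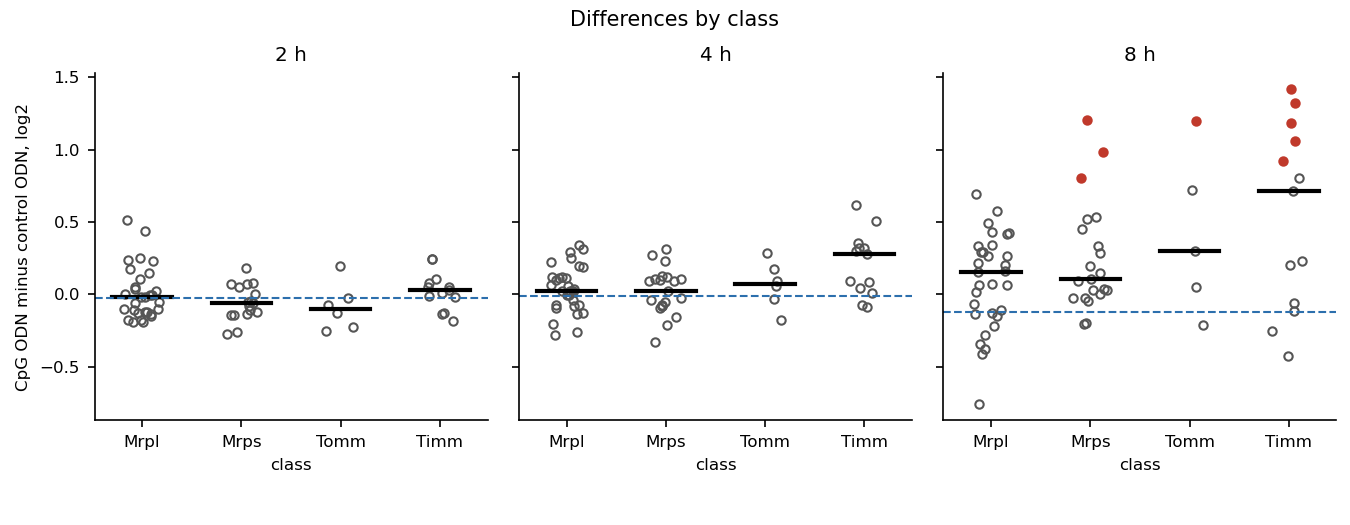
Points are members, placed by class and by their difference on the log2 scale between CpG ODN and control ODN at 2, 4 and 8 h. Filled points have adjusted p below 0.05, black bars are class medians and dashed lines are the median of all genes tested. At 8 h the Timm median is 0.71 and the Mrpl genes, with a median of 0.15, hold no filled point.

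Counted without a model, all CpG ODN arrays at 8 h lay above all control ODN arrays for 18 of 70 members (25.7%) and below them for 4 (5.71%). Among all genes tested the order was the other way round in frequency, with 10.8% above and 19.3% below, beside the 10% called. Against medium 19 members lay wholly above and 5 wholly below, where 10.4% of all genes lay above and 17.7% below, beside the 11.8% called. CpG ODN replicate 1 was the lowest of the CpG ODN arrays at 8 h for all 14 called members, and for 38 of the 59 members measured on all of them. In medium, replicate 2 was the lowest array for 7 of the 14 called members and the highest for the other 7. The median of the 7 Timm genes measured on every array was -0.11, -0.01 and 0.03 on the CpG ODN arrays, -0.91, -0.84 and -1.04 on the control ODN arrays, and -1.25, -0.36 and -0.56 on the medium arrays. These 7 were Timm9, Timm10, Timm17a, Timm23, Timm8a1, Timm50 and Timm8b, which include every Timm gene called against control ODN. The Timm genes with a negative difference from control ODN (Timm17b, Timm29, Timm10b and Timm22) were not among them. On the CpG ODN arrays the median was the value of Timm9 itself, so it adds nothing to the result for that gene.

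At 2 h no member was called between CpG ODN and control ODN. The count called was 0 of 66 tested (limma), 0 members had an unadjusted p under 0.05, and 0.043% of 9302 genes were called in all. The smallest p belonged to Mrpl11, at 0.52 ± 0.39, Mrpl3, at -0.19 ± 0.15, and Mrps15, at -0.26 ± 0.20, each with a limma adjusted p of 1.00. Against medium 0 of 71 were called (0.042% of 9534 genes), and 4 had an unadjusted p under 0.05. The first of these was Mrps21, which was at 0.72, 0.66 and 1.15 on the CpG ODN arrays that measured it and at 0.04, 0.13, -0.21 and -0.10 in medium. The groups did not overlap, and the difference of 0.88 ± 0.19 had a limma adjusted p of 0.158. It could not be set against control ODN at 2 h, where a single array measured it. Tomm40 followed at -0.75 ± 0.29 and Mrps36, whose product is now placed in a dehydrogenase complex of the matrix, at 0.51 ± 0.20, with limma adjusted p of 0.782 and 0.785.

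At 4 h 0 of 71 members were called against control ODN (limma, 0.384% of 9630 genes called) and 0 of 71 against medium (0.218% of 9654, of which 0.0104% lower), with 2 and 1 members at an unadjusted p under 0.05. The smallest p against control ODN were those of Timm23, at 0.51 ± 0.21, Timm10, at 0.62 ± 0.26, and Mrps36, at -0.33 ± 0.17, each with a limma adjusted p of 1.00. Against medium they were those of Timm10, at 0.70 ± 0.26 (limma adjusted p = 0.700), Timm9, at 0.42 ± 0.22, and Timm23, at 0.40 ± 0.21 (both 0.999). The smallest p at 4 h belonged to a Timm gene in both comparisons. Of the 13 Timm genes, 11 had a positive difference in each, with medians of 0.28 from control ODN and 0.25 from medium. The members as a whole had medians of 0.06 and 0.04, and all genes had medians of -0.01 and -0.04. None of these differences passed the test after adjustment, and whether the Timm genes differ from all genes at 4 h was not tested. For Timm23 at 4 h the arrays overlapped, at -0.26, -0.45, 0.31 and 0.09 with CpG ODN, -0.61, -0.77, -0.81 and -0.14 with control ODN, and -0.37, -0.74, -0.65 and -0.17 in medium.

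The change of the CpG ODN difference with time was tested directly. Between 2 h and 8 h the difference from control ODN grew for 3 of 65 members (limma, 2.13% of 9141 genes grew and 3.26% changed either way). These were Tomm70a, by 1.42 ± 0.38 (limma adjusted p = 0.0323), Timm9, by 1.37 ± 0.33 (limma adjusted p = 0.0133), and Mrps28, by 1.34 ± 0.32 (limma adjusted p = 0.0123). Timm23, at 1.10 ± 0.32, fell just short (limma adjusted p = 0.0517). Mrps28 kept its call under all 23 alternatives run for it, and Timm9 lost its call under 1, the mean of its probes (limma adjusted p = 0.0940). The call for Tomm70a was lost in 8 of 14 fits that left out 1 array (CpG ODN replicate 3 or 4 and control ODN replicate 3 or 4 at 2 h, CpG ODN replicate 2 or 3 and control ODN replicate 1 or 2 at 8 h), with a highest limma adjusted p of 0.102. Between 2 h and 4 h the change passed the test for 0 of 66 members (limma, 0.0108% of 9260 genes), none of which had an unadjusted p under 0.05.

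**Figure D4:**
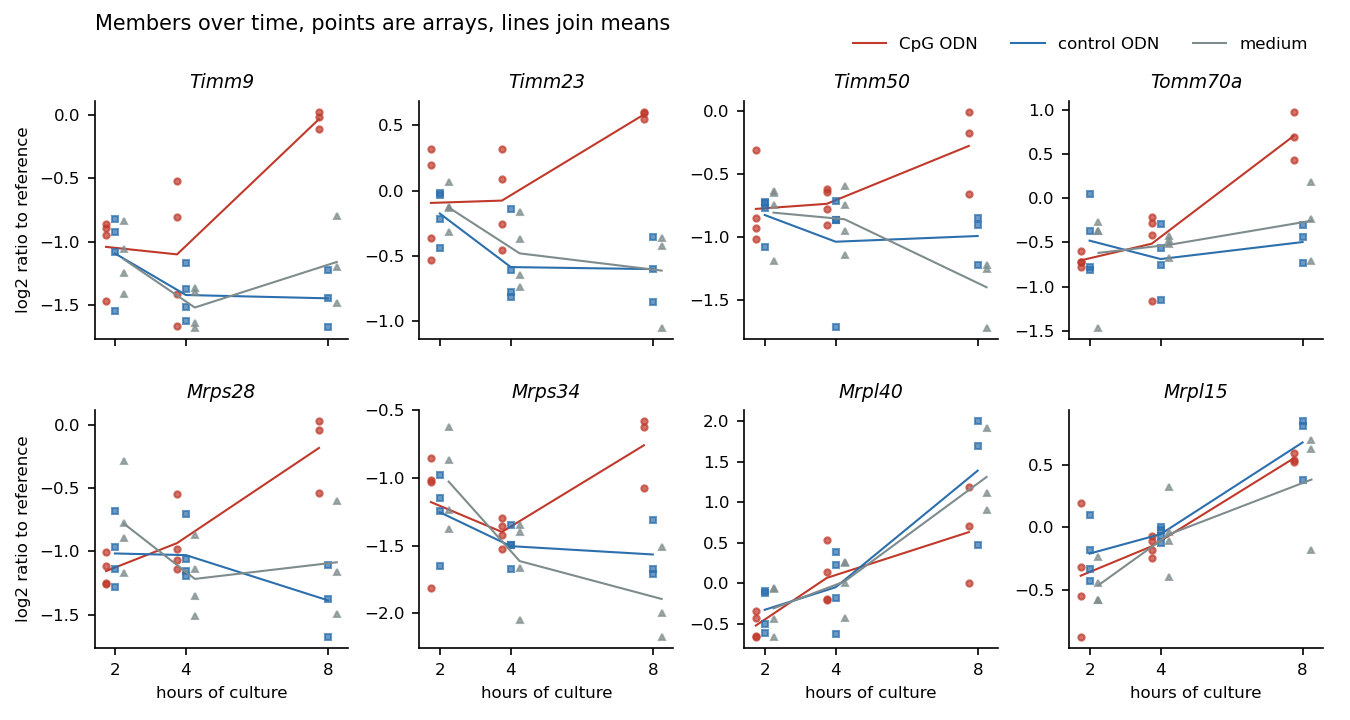
The log2 ratio to the reference RNA of 8 members is plotted against hours of culture, with a point for each array, shifted slightly sideways by condition, and lines joining the means. CpG ODN parts from both controls at 8 h for Timm9, Timm23, Tomm70a and Mrps28, Mrps34 is lower at 8 h than at 2 h in medium, and Mrpl40 and Mrpl15 increase in all 3 conditions.

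Within CpG ODN, 12 of 70 members were higher at 8 h than at 2 h and 2 were lower (limma, 8.45% of 9524 genes higher, 8.13% lower and 16.6% either way). They included 8 of the 14 members called against a control, namely Tomm70a, Timm9, Mrps28, Tomm40, Mrps2, Timm8a1, Timm23 and Timm10. The largest was Tomm70a, at 1.41 ± 0.27 (limma adjusted p = 3.77e-04). The remaining higher members were of the large subunit, namely Mrpl15, Mrpl23, Mrpl30 and Mrpl40. The lower ones were Mrps21, at -0.97 ± 0.23, and Mrpl18, at -0.49 ± 0.16. For Mrps21 the value at 4 h was already below that at 2 h, with a difference of -0.91 ± 0.21 (limma adjusted p = 0.0299), the single call among 71 members in that comparison (0.966% of 9625 genes). This last call was lost without any 1 of CpG ODN replicates 1, 3 and 4 at either time and under 3 of the other settings, with a highest limma adjusted p of 0.273. Among the calls for 8 h against 2 h, those of Tomm70a, Tomm40, Timm9, Mrps28, Mrpl15 and Mrpl30 were kept whichever array was left out. The call of Mrps21 was kept in each such fit that could test it. Only 2 CpG ODN arrays measured Mrps21 at 8 h, so it could not be tested without either of them. Those of Mrps2 and Mrpl40 were lost without replicate 3 at 8 h. Leaving out replicate 2 or 3 at 8 h ended the calls of Timm8a1, Timm23, Timm10, Mrpl18 and Mrpl23, and leaving out replicate 1 at 8 h ended those of Timm23, Timm10 and Mrpl18. Of the 2 h arrays, replicate 1 was needed for Timm10 and Mrpl23, replicate 2 for Timm8a1, Timm23, Timm10 and Mrpl23, replicate 3 for Timm23, Timm10, Mrpl18 and Mrpl23, and replicate 4 for Mrpl18.

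Control ODN changed few members with time. At 8 h against 2 h, 3 of 66 were higher and 0 lower (limma, 7.61% of 9269 genes higher, 2.48% lower and 10.1% either way). They were Mrpl40, by 1.72 ± 0.32, Mrpl19, by 0.93 ± 0.23, and Mrpl15, by 0.89 ± 0.22, with limma adjusted p of 3.99e-04, 0.00622 and 0.00631. Mrpl40 was at 0.47, 1.69 and 2.00 at 8 h and at -0.50, -0.61, -0.09 and -0.12 at 2 h in control ODN. The call for Mrpl19 was lost without replicate 3 at 8 h, at a limma adjusted p of 0.0743. At 4 h against 2 h 0 of 66 were called in control ODN (1.3% of 9303 genes), with 7 at an unadjusted p under 0.05. No share over all genes stands beside the latter count, so it is not a result particular to the members.

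In medium alone, 4 of 71 members were higher and 6 lower at 8 h than at 2 h (limma, 9.26% of 9475 genes higher, 5.3% lower and 14.6% either way). Taken either way, the share of members called was close to that of all genes. All 4 higher ones were of the large subunit. They were Mrpl40, by 1.62 ± 0.32, Mrpl20, by 1.59 ± 0.35, Mrpl15, by 0.85 ± 0.22, and Mrpl49, by 0.77 ± 0.21. The lower ones were Timm44, at -1.15 ± 0.31, Mrps11, at -1.10 ± 0.24, Mrpl4, at -1.09 ± 0.25, Mrps34, at -0.87 ± 0.23, Timm17b, at -0.76 ± 0.23, and Mrps18a, at -0.68 ± 0.18. Without medium replicate 2 at 8 h the calls of Timm44, Mrpl4, Mrps34, Timm17b, Mrps18a and Mrpl15 were lost, and without replicate 3 those of Mrpl15 and Mrpl49. That of Timm17b was also lost without replicate 3 or 4 at 2 h. Of the 6 lower members, Mrpl4, Mrps18a, Mrps34 and Timm44 were also among the 12 members called between CpG ODN and medium at 8 h, a comparison that uses the same medium arrays. None of these 4 was called between 8 h and 2 h within CpG ODN. At 4 h 0 of 71 members were called in medium (limma, 1.58% of 9560 genes), and 11 had an unadjusted p under 0.05. The latter count has no share over all genes beside it, so it is not a result particular to the members. All 13 Timm genes had a negative difference from 2 h, with a median of -0.35. Whether this set the Timm genes apart from all genes was not tested. Mrpl15 and Mrpl40 were the 2 members higher at 8 h than at 2 h in all 3 conditions.

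No member was called between control ODN and medium. The counts called were 0 of 66 at 2 h, 0 of 71 at 4 h and 0 of 71 at 8 h (limma, 0% of all genes at each time), and 1, 0 and 4 members had an unadjusted p under 0.05. The smallest of these at 8 h was that of Mrpl4, at 0.74 ± 0.27 (limma adjusted p = 0.999).

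Genes that work with the members were read from lists. Among import partners and matrix chaperones, 5 of 24 were higher with CpG ODN than with control ODN at 8 h and 0 were lower, beside 4.55% of all genes higher. They were the matrix chaperonin subunit Hspd1, at 1.50 ± 0.22 (limma adjusted p = 1.83e-05), its co-chaperonin Hspe1, at 1.12 ± 0.30, the cytosolic chaperone Hsp90aa1, at 0.98 ± 0.27, the import motor Hspa9, at 0.94 ± 0.24, and the presequence-trimming peptidase Mipep, at 0.68 ± 0.16. Against medium 8 of 24 were higher and 0 lower, beside 5.66% of all genes higher. Among genes of mitochondrial translation and ribosomal RNA handling, 3 of 23 were higher than control ODN, namely C1qbp, at 1.68 ± 0.42, the tyrosyl-tRNA synthetase Yars2, at 0.82 ± 0.23, and Lrpprc, at 0.79 ± 0.26. C1qbp was the 1 of 23 higher than medium. The list medians from control ODN were 0.45 for import partners and 0.03 for translation genes, beside -0.12 for all genes.

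Among 14 growth regulators, Myc and Pprc1, a coactivator of mitochondrial biogenesis genes, were called higher than control ODN at 8 h, at 1.56 ± 0.29 and 1.07 ± 0.20 (limma adjusted p = 3.53e-04 and 5.41e-04). Myc was the 1 gene of these 3 lists called at 4 h, at 1.22 ± 0.25 from control ODN (limma adjusted p = 0.0115). Its difference from medium at 4 h was 1.00 ± 0.25 and missed the threshold (limma adjusted p = 0.108). Whether Myc bears on the members' differences was not tested. Against medium at 8 h 4 of 14 growth regulators were higher (5.66% of all genes) and 1, Yy1, was lower (6.11% of all genes), at -0.66 ± 0.20 (limma adjusted p = 0.0302). Nrf1 and Gabpa, whose motifs were among those searched, were not called, at 0.12 ± 0.21 and -0.03 ± 0.19 from control ODN.

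Markers of cell types moved beside the members at 8 h. Against control ODN, 4 of 10 T cell markers, 2 of 11 B cell, 2 of 8 monocyte and macrophage, 1 of 6 erythroid and 1 of 4 platelet markers were lower, 0 of 7 neutrophil and 0 of 5 NK cell markers were called, and no marker in any list was higher, where 5.45% of all genes were lower. Against medium, 2 of 11 B cell, 2 of 8 monocyte and macrophage, 1 of 10 T cell, 1 of 7 neutrophil and 1 of 6 erythroid markers were lower, 0 of 5 NK cell and 0 of 4 platelet markers were called, and again none was higher, where 6.11% of all genes were lower. The averaged T cell markers lay at 1.08 to 1.44 on the CpG ODN arrays, 1.79 to 2.00 on the control ODN arrays and 1.43 to 2.12 on the medium arrays. The averaged monocyte and macrophage markers lay at -0.03 to 0.39 on the CpG ODN arrays, 0.43 to 1.10 on the control ODN arrays and 0.38 to 0.87 on the medium arrays. The part of these marker shifts in the members' differences was not tested.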

How the data were processed

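The deposited value table lists 16720 probes on 33 arrays and holds log ratios, read here as log2, for 11303 of them, of which 5203 were measured on every array. The authors made them from Cy5 spleen cell cDNA over Cy3 reference cDNA. Dyes are per the labels' protocols, and the ratio's direction is read from them. For the scanner and the steps of background correction and normalization, nothing is stated in the labels or the table. The log base was read from the range of values, and array medians of -0.085 to 0.024 were set to 0. Probes with 1 gene symbol in the platform annotation (14656) were used, which left out 2058 with none and 6 with several. For a gene with several probes, that with the fewest missing values was taken, and the first listed where these were equal.

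All 9 groups were fitted together with 1 mean each in limma 3.58.1 (R 4.3.3), without imputation. Testing a gene required 2 or more measured arrays in every group compared, p-values were adjusted by Benjamini-Hochberg over all genes tested, and adjusted p below 0.05 was the threshold for a call. Counts of members at an unadjusted p under 0.05 are given without the share over all genes, so they are not a result particular to the members. Errors beside differences are moderated-fit standard errors. The design text speaks of independent experiments combined, while the labels name repeats only, so p-values measure the spread between these arrays. On simulated data for CpG ODN against control ODN at 8 h (9494 genes, 200 of them changed), 46% of changes of log2 size 1 and 93% of size 2 were recovered. The data themselves gave 949 calls in that comparison, more than the number of genes changed in the simulation. The adjustment depends on that number, so these shares do not carry over directly to the data.

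Members and lists were chosen with earlier results of these data known. The members named are all those called, the largest rise and fall per class at 8 h, the 3 smallest p where none was called, members that changed with time in the controls, and those whose probes differ in sign. Alternatives were the ratios as deposited, quantile normalization, array weights, genes on all arrays only, the mean of probes, only the compared groups, the 4 arrays of lowest database number left out or as a block, a replicate block, and each array left out. Arrays give no counts, so their number limits the precision.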

Additional observations from a re-analysis of the deposited data

Results flagged for a closer look

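Single arrays stood apart from the other 3 of their group by Dixon's criterion in 9 of 151 groups of 4 arrays, or 5.96%, over 28 of the members described, the others not being tested for this, where chance marks about 1 in 20 groups. In CpG ODN at 2 h, Mrpl11 was at 0.78 on replicate 1 and between 0.16 and 0.21 on the others, and Timm9 was at -1.47 on replicate 2 and between -0.95 and -0.86 on the others. In control ODN at 2 h, Mrps11 was at -0.44 on replicate 4 (others -1.15 to -1.06) and Timm50 at -1.08 on replicate 2 (others -0.77 to -0.72). In control ODN at 4 h, Mrpl4 was at -0.58 on replicate 2 (others -1.14 to -1.05), Mrps11 at -0.67 on replicate 4 (others -1.35 to -1.29) and Timm50 at -1.71 on replicate 2 (others -0.86 to -0.71). In medium at 2 h, Mrps25 was at 0.99 on replicate 1 (others 0.32 to 0.38) and Tomm70a at -1.46 on replicate 2 (others -0.37 to -0.26).

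From 2 h to 8 h the CpG ODN minus control ODN difference grew for Mrps28 by 1.34 ± 0.32, for Timm9 by 1.37 ± 0.33 and for Tomm70a by 1.42 ± 0.38, with limma adjusted p of 0.0123, 0.0133 and 0.0323 for this difference of differences.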

How the results depend on the processing

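No member or median listed here changed sign with a call under any alternative. Members called between CpG ODN and control ODN at 8 h numbered 14 with array weights and 14 with the replicate block (9 in the fit as reported), and 7 to 10 with 1 array left out. Against medium at 8 h they numbered 19 with array weights, 3 when the fit held the compared groups alone (Mrps2, Timm23 and Timm9; 12 as reported) and 7 to 12 with 1 array left out, the lowest without CpG ODN replicate 3. At 2 h against medium 1 was called with quantile normalization and 1 with array weights, and at 4 h 1 with array weights. The growth of the CpG ODN difference from 2 h to 8 h was called for 6 with array weights, 6 with genes measured on all arrays, 6 with the replicate block, 5 without the 4 arrays of lowest database number, and 2 to 6 with 1 array left out, the highest without control ODN replicate 2 at 2 h. Over time, calls for 8 h against 2 h numbered 24 with array weights and 6 to 14 with 1 array left out in CpG ODN (8 without replicate 2 and 6 without replicate 3 at 8 h), 1 with only the compared groups in control ODN, and 20 with array weights, 3 with only the compared groups and 5 to 12 with 1 array left out in medium (5 without replicate 2 at 8 h). For 4 h against 2 h, array weights gave 1 call in control ODN and 11 in medium. The single call in CpG ODN went to 0 with only the compared groups, with genes on all arrays, without the 4 arrays of lowest database number and with them as a block, and lay at 0 to 1 with 1 array left out. The median difference at 2 h from control ODN was -0.17 without the 4 arrays. These counts are given without the share of all genes called under the same setting. A rise or fall in them is therefore not a result particular to the members. The causes of these shifts were not tested. Calls of single named members were kept 400 times and lost 31 times over the other settings, and kept 287 times and lost 76 times when 1 array was left out.

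The labels do not say that equal repeat numbers mark a shared experiment. Same-number correlations of deviations from group means had medians of 0.22, 0.40 and 0.48 at 2, 4 and 8 h, against -0.09, -0.16 and -0.18 for different numbers, and passed 0.1 in 7 of 12, 8 of 12 and 6 of 9 pairs. Of 33 arrays 22 correlated best with their own number, 8 of 9 at 8 h. This is a hint of pairing from the data that did not hold for every pair, so the fit as reported has no replicate block. Time comparisons cannot be estimated with a block that lies within time, so no value is given for them. With 3 arrays a group at 8 h, the simulation recovered 46% of changes of log2 size 1. Changes of this size or less can therefore be missed, and the share missed in the data was not measured.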
